A study of Rattus norvegicus with 20 samples.

Results

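Potassium channel genes were taken here as all genes on the array whose name begins with Kcn or Hcn, the latter being the hyperpolarization-activated relatives that pass sodium as well as potassium. The rule used only gene names, with the suffix for predicted genes removed. It found 108 probes for 89 genes among 37242 genes or unnamed probes on the array. The probe with the highest mean signal stood for each gene. Of the 89 genes, 78 passed a filter on dim probes and were tested, and 11 did not pass. The samples were neurons cut out by laser from the cortex beside a stroke in 10 rats aged 2 years. The tracers CTb-Alexa 488 and, later, CTb-Alexa 647, dye conjugates of cholera toxin B, were injected into that cortex, with 21 days between the injections in 5 rats and 7 days in 5 other rats. Neurons were captured 7 days after the later tracer. Each rat gave 1 pool labelled as sprouting and 1 pool labelled as non-sprouting neurons, so the groups were sprouting and non-sprouting neurons at day 21 and at day 7. All groups shared the stroke, the age and the tracers. Animals without a stroke and young animals were not analysed here.

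Potassium channels set the resting potential of a neuron, end its action potentials and shape the pause before the next one. Voltage-gated subunits of the Kcna, Kcnb, Kcnc and Kcnd families open on depolarization, and silent subunits of the Kcnf, Kcng, Kcns and Kcnv families modify Kcnb channels without forming channels alone. The Kcnq family carries the M current that damps repetitive firing, the Kcnh family holds the ether-a-go-go channels, and Kcnma1 and the Kcnn genes encode channels opened by calcium. Kcnj genes encode inward rectifiers, including those opened by G proteins, and Kcnk genes encode the tandem-pore leak channels. Kcnab, Kcnip, Kcne and Kcnmb genes encode auxiliary subunits. HCN channels open on hyperpolarization and carry the h current of cortical dendrites.

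Both pools of an animal were hybridised together on 2 arrays with the dyes exchanged, and each animal was counted as 1 replicate. Between 20.6% and 94.8% of probes were well above background in the channel of sprouting neurons, and between 51.4% and 95.4% in that of non-sprouting neurons. In the sprouting channel the dimmest were the dye-swap arrays of day 21 replicates 2, 3 and 4, with 56.7%, 35.6% and 20.6%. In the non-sprouting channel the dimmest was the forward array of day 7 replicate 2, with 51.4%. The number of arrays limits the precision of every value below. Across members, the log2 ratios of an animal's 2 arrays correlated with r between -0.09 in day 21 replicate 4 and 0.91 in day 21 replicate 5, a description of repeatability within these arrays. All 10 listed neuron markers were tested, and Rbfox3 and Syt1 were well above background on all arrays of every group. Their median log2 ratio was -0.51 in day 21 replicate 5, and between -0.16 and 0.23 in the other animals. In that replicate Syt1 had -2.03, Nefl -1.11, Map2 -0.89, Eno2 -0.71 and Rbfox3 -0.63, but Snap25 had 1.94 and Stmn2 0.36. Markers of microglia and macrophages were measured too: all 12 listed genes were tested, and none was below background throughout a group. Day 7 replicate 1 stood apart in having log2 ratios of 4.21 for Lyz2, 1.45 for Cd68 and 1.30 for Tyrobp. Other genes of the same list were lower in its sprouting neurons, with -0.93 for Cd74, -0.46 for C1qa, -0.42 for C1qb, -0.36 for Cx3cr1 and -0.29 for C1qc, and the median over the 12 genes was 0.06. Over 7 blood cell genes its median was 0.66, beside medians of 0.02 to 0.06 in the other 4 animals of day 7.

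No potassium channel gene differed between sprouting and non-sprouting neurons past an adjusted p of 0.05 in limma at either day, and neither did any other feature (0 of 31071, 0%). The typical difference was small: the median size of a member's mean log2 ratio was 0.05 at day 21 and 0.07 at day 7, against 0.05 and 0.05 over all features. At day 21 the members' mean log2 ratios ran from -0.30 for Kcns1 to 0.33 for Kcns3, both silent subunits, with a median of -0.01. At day 7 they ran from -0.22 for Kcna1, a low-threshold axonal channel, to 0.42 for Kcnd2, the main A-type channel of cortical dendrites, also with a median of -0.01. At an unadjusted p under 0.05 the ratio differed for 4 members at day 21 (5.13%, against 4.77% of all features). These were Kcnj9, Kcne4, Kcns1 and Kcnk4, so 4 members were lower in sprouting neurons (2.91% of all features were) and 0 were higher (1.86% of all features were). At day 7 it differed for 7 members (8.97%, against 6.14% of all features), with Kcnmb3, Kcna3, Kcnf1 and Kcnd2 higher (4 members, beside 3.43% of all features) and 3 members lower, Kcnip1 and Kcnab2 among them (beside 2.71%). Those shares lay near the background. The ratio was above 0 in 31 of 78 members at day 21 and in 34 of 78 at day 7, where 49.3% and 48.8% of all features were.

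**Figure D1:**
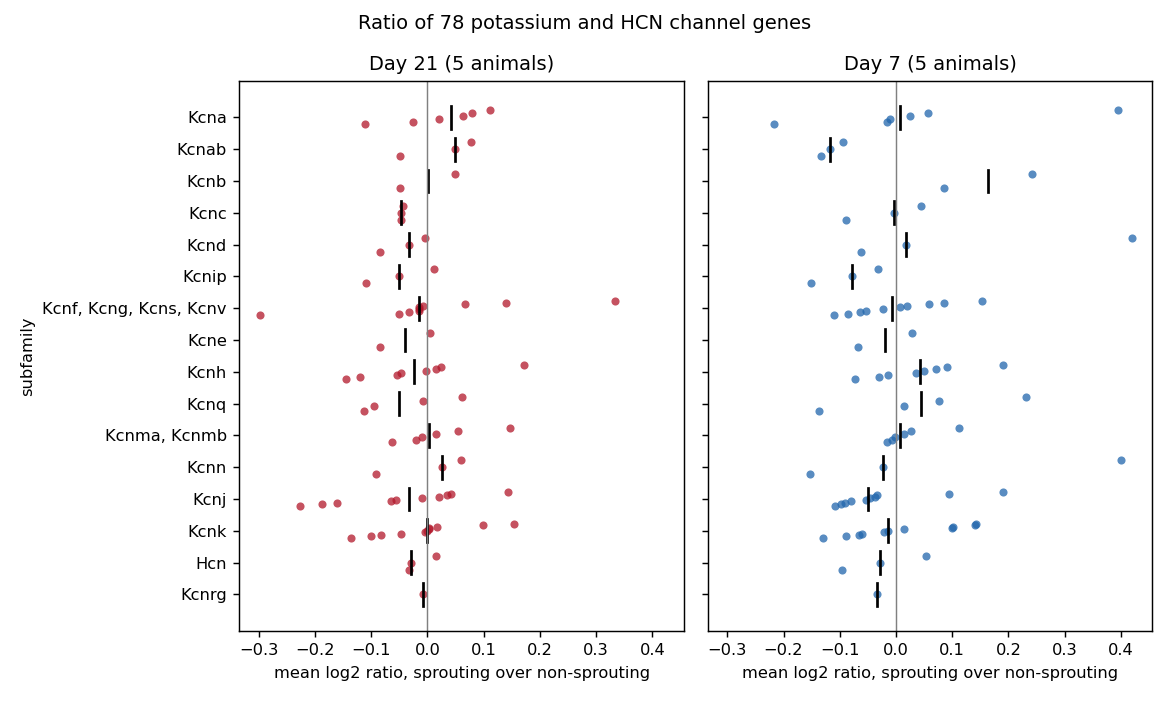
Mean log2 ratio of sprouting over non-sprouting neurons for each of 78 potassium and HCN channel genes (points), by subfamily, at day 21 (left, 5 animals) and day 7 (right, 5 animals). Black bars are subfamily medians, which lie within 0.06 of 0 at day 21, while Kcnb at 0.16 and Kcnab at -0.12 lie farthest from 0 at day 7.

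By subfamily, no group of channels had the same sign in every animal of both days. The Kcnb family, whose 2 members encode the somatic delayed rectifiers, had a median log2 ratio of 0.00 at day 21 and 0.16 at day 7. Its medians per animal were -0.04, -0.28, 0.12, 0.18 and 0.02 at day 21, against 0.03, 0.10, 0.04, 0.28 and 0.37 at day 7. Thus all 5 animals of day 7 and 3 of 5 animals of day 21 were above 0. The 3 cytoplasmic Kcnab subunits had medians of -0.04, -0.15, -0.08, 0.07 and 0.11 at day 21, against -0.23, -0.13, 0.03, -0.11 and -0.16 at day 7. By the used probes, each of the 3 had a mean below 0 at day 7, and 2 of 3 had a mean above 0 at day 21. The other Kcnab1 probe had a mean above 0 at both days, 0.14 at day 21 and 0.05 at day 7. The 3 Kcnip subunits, calcium sensors that bind Kcnd channels, were below 0 at day 7 in all 5 animals, at -0.20, -0.05, -0.03, -0.01 and -0.21, and at day 21 they had -0.13, 0.00, 0.00, -0.14 and 0.12. In the Kcnc family of fast-spiking channels 1 animal stood apart: day 21 replicate 4 had a median of -0.52, and the other 4 animals of day 21 lay between -0.01 and 0.13. Across members, the log2 ratios of this animal's 2 arrays correlated with r = -0.09. Its dye-swap array had 20.6% of probes well above background in the sprouting channel. The same animal had log2 ratios of -1.28 for Gad1, -0.74 for Gad2 and -0.61 for Pvalb, genes of inhibitory interneurons, which use Kcnc channels. Reln (-1.20), Calb2 (-0.17) and Slc32a1 (-0.04) were also lower in its sprouting neurons, but Npy (1.44), Vip (0.60) and Sst (0.06) were higher. Across the whole list of 10 interneuron markers, of which 9 were tested, its median was -0.17, and the other animals of day 21 had medians between -0.40 and 0.23. The part of these cells in the result was not tested. The larger families of inward rectifiers (10 tested), leak channels (11 tested), silent subunits (10 tested) and ether-a-go-go channels (8 tested) kept medians within 0.16 of 0 in every animal.

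**Figure D2:**
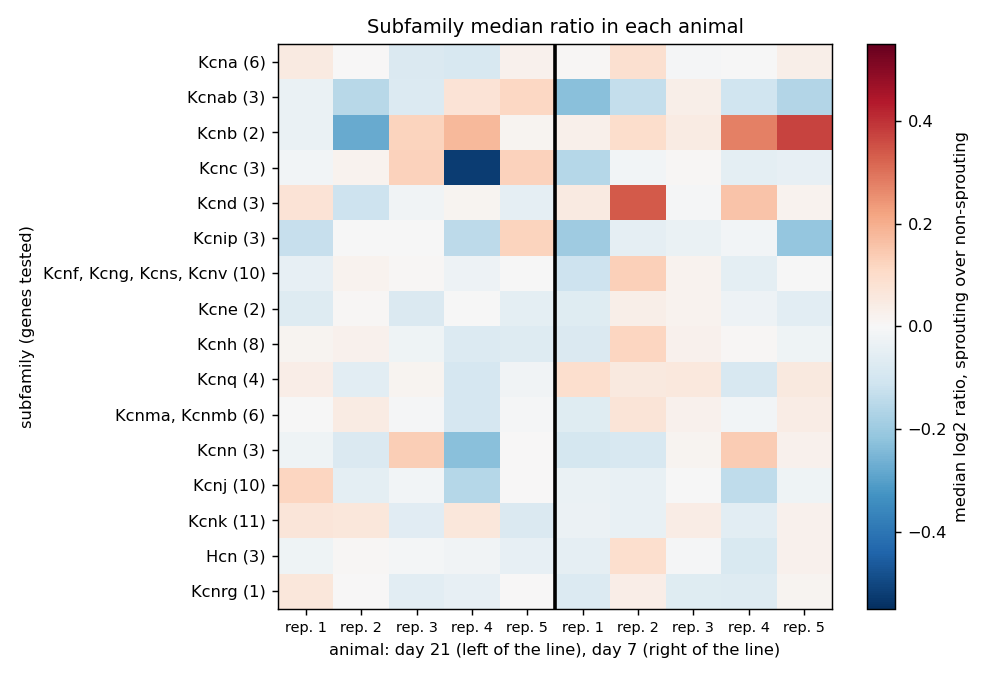
Median log2 ratio of sprouting over non-sprouting neurons over the tested genes of each subfamily (rows, gene number in parentheses) in each animal (columns, day 21 left of the line and day 7 right of it). The strongest colours are single tiles, Kcnc in day 21 replicate 4 at -0.52 and Kcnb in day 7 replicate 5 at 0.37.

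The start regions of 4 members are shown as examples. Kcnf1 and Kcna3 had 1 sign in all animals of day 7, and Kcna2 and Kcne4 did not overlap between the days in sprouting neurons. Other members not shown here did the same. The regions are RefSeq sequences on GRCr8, from 250 bases before to 50 after the annotated start, and 55 of the 89 members had an entry in that table. Capitals mark GGGCGG, the core of a Sp1 box, and CACGTG, an E-box, on either strand. TATAAA and TGACGTCA, searched on both strands as well, had no match in these 4 windows.
Kcnf1, chr6:45693657-45693956, minus strand: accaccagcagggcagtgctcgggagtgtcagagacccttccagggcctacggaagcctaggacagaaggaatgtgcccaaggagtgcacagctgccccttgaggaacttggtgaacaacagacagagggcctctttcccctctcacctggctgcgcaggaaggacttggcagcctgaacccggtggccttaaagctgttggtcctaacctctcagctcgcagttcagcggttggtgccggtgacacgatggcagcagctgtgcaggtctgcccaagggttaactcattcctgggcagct
Kcna3, chr2:197320074-197320373, plus strand: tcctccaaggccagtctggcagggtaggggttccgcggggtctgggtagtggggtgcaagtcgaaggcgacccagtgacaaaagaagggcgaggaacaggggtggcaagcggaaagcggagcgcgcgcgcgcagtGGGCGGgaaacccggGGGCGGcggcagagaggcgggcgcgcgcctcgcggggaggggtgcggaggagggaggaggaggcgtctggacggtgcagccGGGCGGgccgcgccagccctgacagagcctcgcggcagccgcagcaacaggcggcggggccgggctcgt
Kcna2, chr2:197393280-197393579, plus strand: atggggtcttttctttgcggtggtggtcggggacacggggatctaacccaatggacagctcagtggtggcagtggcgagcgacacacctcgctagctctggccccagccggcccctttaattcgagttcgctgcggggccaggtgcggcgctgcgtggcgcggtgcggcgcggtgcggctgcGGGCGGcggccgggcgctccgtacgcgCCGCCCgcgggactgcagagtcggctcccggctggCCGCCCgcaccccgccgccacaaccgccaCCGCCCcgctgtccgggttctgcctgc
Kcne4, chr9:87695798-87696097, plus strand: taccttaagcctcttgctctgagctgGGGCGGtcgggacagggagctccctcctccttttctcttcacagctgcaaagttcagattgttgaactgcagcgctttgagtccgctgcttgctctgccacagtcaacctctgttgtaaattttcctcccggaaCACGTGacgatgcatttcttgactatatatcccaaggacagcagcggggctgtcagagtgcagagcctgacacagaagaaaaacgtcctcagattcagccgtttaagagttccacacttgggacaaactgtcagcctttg
Kcna3 and Kcna2 both lie on chromosome 2, and their windows hold 74.0% and 73.3% G and C bases with 3 and 4 GGGCGG matches. The Kcne4 window holds 1 GGGCGG and 1 CACGTG, and the Kcnf1 window holds none of the 4 motifs. GGGCGG occurred in 33.1% of all 33469 windows of this length and in 29 of the 60 windows of members (48.3%), and CACGTG in 6.42% of all windows and 2 of the 60. A match is a description of letters.

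Among members with 1 sign in all 5 animals of day 7, Kcnf1 had the smallest p. At day 21 its log2 ratios were -0.08, 0.02, -0.08, -0.05 and 0.12, against 0.28, 0.22, 0.07, 0.04 and 0.16 at day 7. Every animal of day 7 was thus above 0, while the animals of day 21 lay on both sides. Kcnf1 encodes a silent subunit of cortical neurons, and its mean log2 ratio at day 7 was 0.15 ± 0.10 (SD, n = 5), with an adjusted p of 0.694 in limma. Kcna3, a voltage-gated channel known from lymphocytes, microglia and nerve terminals, had log2 ratios of 0.07, -0.03, 0.77, -0.08 and -0.17 at day 21. At day 7 they were 0.21, 0.85, 0.29, 0.37 and 0.26, a mean of 0.39 ± 0.26 with an adjusted p of 0.762. The other probe for Kcna3 gave a mean of only 0.03 at day 7, so its 2 probes disagree. Such disagreement was common among members with several probes. Of 14 other probes past the filter, the mean ratio had the sign of the used probe for 3 at day 21 and 6 at day 7. Kcnd2 had log2 ratios of 0.08, -0.14, 0.28, 0.08 and -0.71 at day 21, against 0.38, 1.36, 0.16, 0.16 and 0.04 at day 7. Replicate 2 lay far above the other animals of day 7. The mean at day 7 was 0.42 ± 0.54 (adjusted p = 0.810), and 0.19 without replicate 2. Kcnn4, the intermediate-conductance calcium-activated channel of microglia and blood cells, had log2 ratios of -0.02, -0.12, 0.14, -0.23 and -0.22 at day 21, against 1.54, 0.09, 0.18, 0.14 and 0.06 at day 7. Only replicate 1 of day 7 was far from 0: the mean was 0.40 ± 0.64 (adjusted p = 0.813) and 0.12 without that animal, the one with the highest Lyz2, Cd68 and Tyrobp ratios. The Kcnn4 probe was well above background on 3 of 10 arrays of sprouting and 7 of 10 of non-sprouting neurons at day 21, and on 9 and 7 of 10 at day 7. Over all 12 markers of microglia and macrophages that animal's median ratio was 0.06, and the summed linear level in sprouting neurons ran from 6666 to 8423 at day 21 and from 8732 to 48961 at day 7. In non-sprouting neurons this sum ran from 6905 to 8939 at day 21 and from 7501 to 32643 at day 7. Both day 7 maxima came from replicate 1. The other animals of day 7 reached at most 11162 in sprouting and 13407 in non-sprouting neurons. The part of such cells in the Kcnn4 value was not tested. Kcnk6, a leak channel, had its highest ratio in the same animal (1.13), with the other 4 animals of day 7 between -0.26 and 0.12. The count of members with all 5 animals above 0 was 0 at day 21 (0%, against 2.42% of all features) and 5 at day 7 (6.41%, against 4.89%). The fifth of these was Hcn4.

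**Figure D3:**
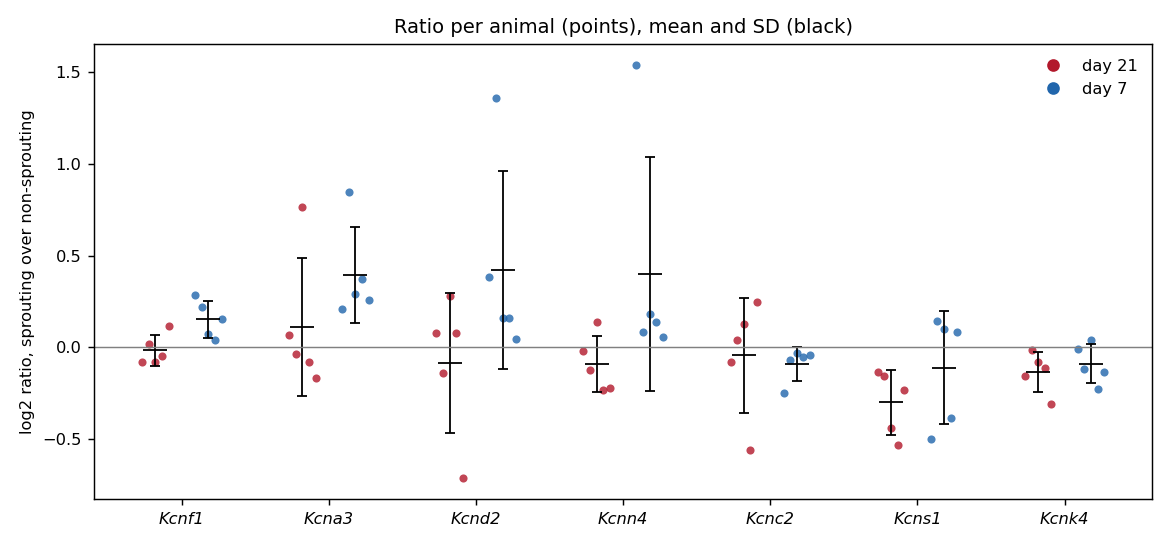
Log2 ratio of sprouting over non-sprouting neurons per animal (points, day 21 left of day 7 for each gene), with the mean and SD in black, for 7 genes. Kcnf1, Kcna3, Kcnd2 and Kcnn4 are above 0 in all 5 animals of day 7, with 1 animal at 1.36 for Kcnd2 and 1 at 1.54 for Kcnn4, and Kcns1 and Kcnk4 are below 0 in all 5 animals of day 21.

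Members below 0 in all 5 animals of a day were Kcns1 and Kcnk4 at day 21 (2.56%, against 3.24% of all features), and 2 members, Kcnc2 among them, at day 7 (2.56%, against 5.43%). Kcnc2, a channel of fast-spiking interneurons, had -0.08, 0.04, 0.13, -0.56 and 0.25 at day 21, against -0.25, -0.07, -0.03, -0.05 and -0.04 at day 7. Its mean at day 7 was -0.09 ± 0.09 (adjusted p = 0.897) and -0.05 without replicate 1. Kcns1, a silent subunit, had -0.13, -0.16, -0.44, -0.53 and -0.23 at day 21, against -0.50, 0.15, 0.10, -0.39 and 0.09 at day 7. The mean was -0.30 ± 0.18 at day 21 (adjusted p = 0.919). Kcnk4, the mechanosensitive leak channel TRAAK, had -0.15, -0.02, -0.08, -0.11 and -0.31 at day 21, against -0.01, -0.12, 0.04, -0.23 and -0.13 at day 7. The mean was -0.14 ± 0.11 at day 21 (adjusted p = 0.919), and 9 of the 10 animals of both days were below 0.

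Channels known to dominate the currents of cortical neurons had ratios close to 0 or on both sides of it. Kcna1 averaged -0.11 ± 0.14 at day 21 and -0.22 ± 0.41 at day 7, where it ran from -0.74 in replicate 1 to 0.27 in replicate 5. Its axonal partner Kcna2 averaged 0.08 ± 0.08 at day 21 and 0.06 ± 0.08 at day 7, with 4 of 5 animals above 0 at each day. Kcnc1 averaged -0.05 ± 0.27 at day 21 and 0.00 ± 0.12 at day 7, with the value furthest from 0 again in day 21 replicate 4 (-0.52). Kcnip2, the Kcnd partner of the A-type current, averaged -0.05 ± 0.07 at day 21 and -0.03 ± 0.05 at day 7. The M channel genes Kcnq3 and Kcnq5 averaged -0.09 ± 0.42 and -0.11 ± 0.24 at day 21 and 0.23 ± 0.19 and 0.08 ± 0.13 at day 7. For Kcnq3, day 21 replicate 5 had -0.81 and the other 4 animals of day 21 lay between -0.05 and 0.28. That animal also had the lowest day 21 ratios of Kcnd2 (-0.71) and Kcnj3 (-0.69), and the highest of Kcnj6 (0.38) and Kcnk1 (0.35). Its median over the 10 neuron markers was -0.51, and the part of that shift in these values was not tested. Kcnh1, an ether-a-go-go channel, averaged -0.12 ± 0.36 at day 21 and 0.09 ± 0.29 at day 7. Among calcium-activated channels, Kcnma1, the large-conductance channel, averaged 0.05 ± 0.20 at day 21 and 0.03 ± 0.11 at day 7, and Kcnn2, which contributes to the afterhyperpolarization of pyramidal cells, 0.03 ± 0.51 at day 21 and -0.15 ± 0.24 at day 7. The G-protein-gated rectifiers Kcnj3 and Kcnj6 averaged 0.14 ± 0.60 and -0.07 ± 0.33 at day 21 and 0.19 ± 0.39 and -0.05 ± 0.22 at day 7. Kcnj3 spanned the widest range of these, from -0.69 to 0.77 among the animals of day 21. Its other probes past the filter gave means of -0.07 and -0.01 at day 21, and -0.10 and 0.04 at day 7. The other probe of Kcnma1 gave -0.10 at day 21 and -0.09 at day 7, and that of Kcnq5 gave 0.07 and 0.03. For Kcna1 the other probe had the sign of the used one, with -0.17 and -0.14. The leak channels Kcnk1 and Kcnk2 averaged -0.05 ± 0.30 and 0.10 ± 0.39 at day 21 and -0.01 ± 0.14 and 0.14 ± 0.50 at day 7. All adjusted p for these channels were above 0.8 in limma at both days.

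The change of the ratio between the days was tested next, as day 21 minus day 7. No member and no feature passed an adjusted p of 0.05 in limma (0 of 31071, 0%), and 1 member, Kcnf1, was under an unadjusted p of 0.05 (1.28%, against 4.15% of all features, of which 1.68% were higher at day 21 and 2.47% lower). The difference was above 0 in 33 of 78 members, beside 49.1% of all features. The Kcnf1 ratio was lower at day 21 by 0.17 on the log2 scale (SE 0.06, adjusted p = 0.922). A two-sided exact permutation test over the 10 animals gave p = 0.0317 for Kcnf1, unadjusted, where 0.00794 is the smallest p such a test can give. For Kcnn4 the difference was -0.49 (SE 0.26, exact permutation p = 0.0238, unadjusted), and -0.21 without day 7 replicate 1, from a probe dim on most day 21 arrays of sprouting neurons. Kcnd2 differed by -0.50 (SE 0.26), and by -0.27 without day 7 replicate 2. The adjusted p was 0.922 for each of them. Kcnj14 (0.13), Kcnip1 (0.16) and Kcnab1 (0.18) had higher mean ratios at day 21, and the value for Kcnab1 was 0.11 without day 21 replicate 5. Kcnh7 had a lower one with -0.18, or -0.09 without day 21 replicate 4. For Kcnab1 the other probe had mean ratios of 0.14 at day 21 and 0.05 at day 7. The exact permutation test gave unadjusted p of 0.103 for Kcnd2, 0.0873 for Kcnj14, 0.103 for Kcnip1, 0.111 for Kcnab1 and 0.0714 for Kcnh7. Hcn4, with a difference of -0.09, had 0.0317 in this test. Its other probe had mean ratios of 0.02 at day 21 and -0.0006 at day 7, so the probes disagree. The permutation test was run for the 78 members only, so no share over all features stands beside these p. Scan batch 3 was the 1 batch of arrays scanned together that held both days, with 1 animal of day 21 and 2 of day 7. Within it the difference was -0.18 for Kcnf1, -0.12 for Kcnn4, -0.02 for Kcnd2 and -0.04 for Kcnip1, the last with the opposite sign. The ratios of the 2 days overlapped for all 78 members, so 0 lay wholly higher at day 21 (0.277% of all features did) and 0 wholly lower (0.518% did).

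Levels were compared between the days within each cell type, as log2 levels of single channels in arbitrary units. Such a level is comparable between animals for 1 probe and not between probes. In these pools of captured cells, fewer cells of a type and less RNA per cell cannot be told apart. No member and no feature passed an adjusted p of 0.05 in limma in sprouting neurons (0 of 31071, 0%) or in non-sprouting neurons (0 of 31071, 0%). At an unadjusted p under 0.05, the level differed for 14 members in sprouting neurons (17.9%, against 15.3% of all features). Of these, 8 were higher at day 21 (10.3%, against 4.63%) and 6 lower (7.69%, against 10.7%). In non-sprouting neurons there were 12 (15.4%, against 15.9%), 6 higher (7.69%, against 5.06%) and 6 lower (7.69%, against 10.8%). Both cell types were read from the same arrays, so their level differences are not independent. The members' median difference was -0.04 in sprouting and -0.02 in non-sprouting neurons, beside -0.06 in each over all features. It was above 0 for 33 members in sprouting and 37 in non-sprouting neurons, where 41.4% and 41.9% of all features were. Between the days the scan batches differed as well, except in batch 3. Microglia and macrophage markers had lower mean levels at day 21, with medians of -0.71 in sprouting and -0.56 in non-sprouting neurons over 12 genes, of which 6 and 2 were under an unadjusted p of 0.05. Astrocyte markers had medians of -0.19 and -0.35 over 10 genes, with 1 and 6 lower at an unadjusted p under 0.05. Their summed linear level in sprouting neurons ran from 33464 to 36317 at day 21 and from 33206 to 41101 at day 7. In non-sprouting neurons it ran from 27627 to 33472 at day 21 and from 34934 to 40374 at day 7, with no overlap. Markers of endothelium and mural cells had medians of -0.37 and -0.23 over 9 genes, with 3 and 1 lower and 1 and 1 higher, and oligodendrocyte markers had -0.06 and -0.21 over 12 genes, with 1 and 3 lower. The part of these cell types in the level differences below was not tested.

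Hcn3, a slowly activating HCN channel that is known from the hypothalamus, had lower levels at day 21 in every animal. Sprouting neurons had 7.27, 7.07, 7.36, 7.24 and 7.25 at day 21, against 7.76, 7.78, 7.66, 7.50 and 7.78 at day 7. Non-sprouting neurons had 7.29, 7.07, 7.37, 7.26 and 7.35 at day 21, against 7.81, 7.68, 7.69, 7.68 and 7.76 at day 7. The days did not overlap in either cell type. The difference was -0.46 (SE 0.10, adjusted p = 0.172 in limma) in sprouting and -0.45 (SE 0.09, adjusted p = 0.118) in non-sprouting neurons, and it was -0.37 and -0.43 within scan batch 3. The other Hcn3 probe gave -0.33 and -0.36. Its probe was well above background on 9 of 10 arrays of sprouting neurons at day 21 and all 10 at day 7.

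Kcne4, a single-pass subunit that inhibits Kcna channels and Kcnq1, was the other member lower in both cell types without overlap. Sprouting neurons had levels of 6.59, 6.05, 6.34, 6.53 and 6.42 at day 21, against 6.96, 6.91, 7.06, 6.79 and 7.08 at day 7. Non-sprouting neurons had 6.71, 6.20, 6.48, 6.53 and 6.45 at day 21, against 7.04, 6.98, 7.05, 6.84 and 7.22 at day 7. The level was 1.49-fold and 1.47-fold higher at day 7 in sprouting and non-sprouting neurons, log2 differences of -0.57 (SE 0.12, adjusted p = 0.172) and -0.55 (SE 0.12, adjusted p = 0.118). Within scan batch 3 they were -0.35 and -0.32. This probe was dim at day 21, well above background on 5 of 10 arrays of sprouting neurons against 10 of 10 at day 7, and on 8 against 9 of 10 in non-sprouting neurons. Without day 21 replicate 1, its adjusted p in non-sprouting neurons was 0.0413, the 1 member to pass in any alternative. That animal was the only one of day 21 in scan batch 3, and without it no batch held both days.

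Kcnab2, the most abundant Kcna auxiliary subunit of brain, averaged 6.70 ± 0.19 at day 21 and 6.98 ± 0.14 at day 7 in sprouting neurons, and 6.75 ± 0.23 and 7.07 ± 0.12 in non-sprouting neurons (SD, n = 5 each). Its differences of -0.28 and -0.33 were -0.01 and -0.07 within scan batch 3. Kcnh7, an ether-a-go-go-related channel, averaged 7.09 ± 0.35 at day 21 and 7.51 ± 0.22 at day 7 in sprouting neurons. There its difference was -0.42 (SE 0.18, adjusted p = 0.300), and -0.29 without day 21 replicate 4. Kcne1, the partner of Kcnq1 in heart and ear, did not overlap between the days in sprouting neurons, with 6.58 ± 0.05 at day 21 and 6.73 ± 0.06 at day 7, a difference of -0.15 (SE 0.09, adjusted p = 0.407). Its probe was dim, well above background on 5 of 10 arrays of sprouting neurons at day 21 against 10 of 10 at day 7. Counting all members, levels did not overlap and were lower at day 21 for 3 members in sprouting neurons (3.85%, against 3.28% of all features) and for 3 in non-sprouting neurons (3.85%, against 4%).

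**Figure D4:**
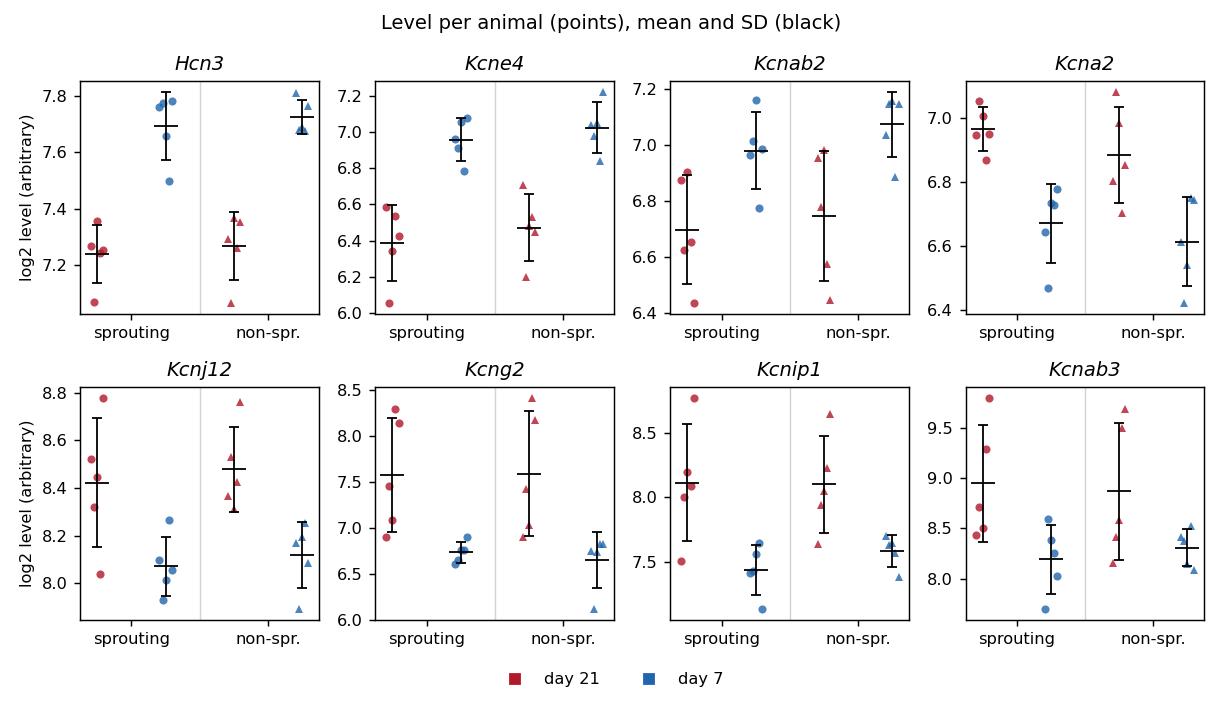
Log2 level in arbitrary units per animal (points, day 21 left of day 7, circles for sprouting and triangles for non-sprouting neurons), with the mean and SD in black, for 8 genes. Hcn3 and Kcne4 lie lower at day 21 with no overlap in either cell type, and the day 21 values of Kcng2 spread from 6.89 to 8.42 while those at day 7 lie between 6.11 and 6.90.

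Kcna2 had levels of 6.95, 7.05, 7.01, 6.87 and 6.95 in sprouting neurons at day 21, against 6.64, 6.47, 6.73, 6.73 and 6.78 at day 7. All 5 animals of day 21 were above all 5 of day 7. In non-sprouting neurons it had 6.80, 7.08, 6.98, 6.70 and 6.85 at day 21, against 6.61, 6.42, 6.54, 6.75 and 6.75 at day 7, with overlap. The differences were 0.29 (SE 0.10, adjusted p = 0.230) and 0.27 (SE 0.11, adjusted p = 0.269), or 1.23-fold and 1.21-fold, and 0.19 and 0.06 within scan batch 3. Kcnj12, a strong inward rectifier, averaged 8.42 ± 0.27 at day 21 and 8.07 ± 0.12 at day 7 in sprouting neurons. In non-sprouting neurons it had 8.37, 8.53, 8.31, 8.42 and 8.76 at day 21, against 8.17, 7.89, 8.19, 8.25 and 8.09 at day 7, with no overlap. The differences were 0.35 (SE 0.14, adjusted p = 0.283) and 0.36 (SE 0.12, adjusted p = 0.189), and 0.36 and 0.20 within scan batch 3. Kcnk15, a leak channel subunit, averaged 6.90 ± 0.28 at day 21 and 6.49 ± 0.30 at day 7 in sprouting neurons, and 6.90 ± 0.27 and 6.48 ± 0.22 in non-sprouting neurons. Its difference in non-sprouting neurons was 0.42 (SE 0.16, adjusted p = 0.237).

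Several members with large positive level differences spread widely among the animals of day 21. Kcng2, a silent subunit, had the largest difference in both cell types. It had levels of 6.90, 7.46, 7.09, 8.29 and 8.14 in sprouting neurons at day 21, against 6.61, 6.65, 6.76, 6.76 and 6.90 at day 7. Non-sprouting neurons had 6.89, 7.43, 7.03, 8.42 and 8.18 at day 21, against 6.75, 6.11, 6.73, 6.82 and 6.83 at day 7. Replicates 4 and 5 of day 21 were highest, and both belonged to scan batch 5. The differences were 0.84 (SE 0.25, adjusted p = 0.203) and 0.94 (SE 0.30, adjusted p = 0.189), but 0.07 in each cell type within scan batch 3. The other 2 probes for Kcng2 gave 0.70 and -0.01 in sprouting neurons, so the probes disagree. Hcn4, the pacemaker channel of the heart, came next, with levels of 6.83, 7.29, 6.78, 8.05 and 9.30 in sprouting neurons at day 21, against 6.67, 7.04, 6.79, 6.98 and 6.87 at day 7. Its differences were 0.78 (SE 0.42, adjusted p = 0.375) in sprouting and 0.87 (SE 0.43, adjusted p = 0.355) in non-sprouting neurons, but -0.10 and -0.01 within scan batch 3. Its other probe gave -0.07 and -0.09, so these probes disagree too. Of 14 other probes of members past the filter, the level difference had the sign of the used probe for 9 in each cell type. Kcnip1, a calcium sensor of interneurons as well as of other cells, had levels of 7.51, 8.0, 8.20, 8.09 and 8.77 in sprouting neurons at day 21, against 7.41, 7.43, 7.56, 7.65 and 7.13 at day 7. In non-sprouting neurons it averaged 8.10 ± 0.37 at day 21 and 7.59 ± 0.12 at day 7. Its differences were 0.68 (SE 0.21, adjusted p = 0.203) and 0.51 (SE 0.17, adjusted p = 0.199), with 0.74 and 0.65 from its other probe, and 0.12 and 0.16 within scan batch 3. Kcnab3, a Kcna auxiliary subunit, averaged 8.95 ± 0.58 at day 21 and 8.19 ± 0.35 at day 7 in sprouting neurons, and 8.87 ± 0.68 and 8.31 ± 0.19 in non-sprouting neurons. Its difference in sprouting neurons was 0.76 (SE 0.27, adjusted p = 0.245), 0.30 within scan batch 3, and 0.54 without day 21 replicate 5. Over 9 tested interneuron markers the median level difference was 0.13 in sprouting and 0.36 in non-sprouting neurons, with 1 gene under an unadjusted p of 0.05 in each. Their summed linear level in sprouting neurons ran from 33114 to 64640 at day 21 and from 26177 to 51426 at day 7, and in non-sprouting neurons from 36610 to 53956 and from 30627 to 44937. The part of interneurons in these members' values was not tested. Levels that did not overlap and were higher at day 21 were found for 1 member in sprouting neurons (1.28%, against 1.08% of all features) and for 2 in non-sprouting neurons (2.56%, against 1.17%).

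By subfamily, the median level difference was lowest for the 2 tested Kcne subunits, at -0.36 in sprouting and -0.34 in non-sprouting neurons, and both had a negative difference in each cell type. Both probes were well above background on only 5 of 10 arrays of sprouting neurons at day 21, against 10 of 10 at day 7. The 6 tested Kcna channels had medians of 0.20 and 0.13, with 4 and 5 of 6 above 0. The 3 Kcnd channels had 0.16 and 0.19, with 2 of 3 above 0 in each. The large-conductance calcium-activated family had -0.13 and -0.14, with 1 of 6 above 0, and the leak channels had -0.13 in each, with 3 of 11 above 0. The lowest member was Kcnk13, a leak channel that microglia express, with differences of -0.67 (SE 0.29) in sprouting and -0.72 (SE 0.31) in non-sprouting neurons (adjusted p = 0.309 and 0.293). Within scan batch 3 both were near 0 (0.00 and -0.01). Its mean levels were 7.93 at day 21 and 8.60 at day 7 in sprouting neurons.

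Other genes of potassium handling were summarised from 3 lists. Of 31 tested auxiliary and clustering partners, none passed an adjusted p of 0.05 in limma in any comparison, and none was under an unadjusted p of 0.05 for the ratio at either day. Their level at day 21 was higher for 5 and lower for 2 in sprouting neurons, and higher for 1 and lower for 2 in non-sprouting neurons, at an unadjusted p under 0.05. Over all features those shares were 4.63% higher and 10.7% lower in sprouting, and 5.06% higher and 10.8% lower in non-sprouting neurons. For the ratio their smallest p were those of Abcc9 (-0.27) and Ank2 (0.12) at day 21 and that of Akap5 (0.40) at day 7. In level, Dpp6, a Kcnd partner, differed by -0.48 and -0.55 (adjusted p = 0.237 and 0.213), and Lrrc38, a large-conductance channel partner, by -0.38 and -0.39 in sprouting and non-sprouting neurons. Of 12 pumps and transporters none passed either. Atp1b1 and Atp1b2, beta subunits of the sodium-potassium pump typical of neurons and of glia, had mean log2 ratios at day 7 of 0.45 (SE 0.11, adjusted p = 0.599) and -0.35 (SE 0.10, adjusted p = 0.695). Of 16 receptors and G proteins that gate potassium channels none passed. Adora1, the adenosine receptor that opens Kcnj3 and Kcnj6 channels, had a mean log2 ratio of -0.32 at day 7 (SE 0.07, adjusted p = 0.5), and its ratio was higher at day 21 by 0.31 (SE 0.10, adjusted p = 0.922). Sstr2, a somatostatin receptor, differed in level by -0.65 (SE 0.17, adjusted p = 0.177) in sprouting and -0.70 (SE 0.18, adjusted p = 0.135) in non-sprouting neurons.

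The 11 members that did not pass the filter included Kcna7, Kcne2, Kcne3, Kcnj1, Kcnj2, Kcnj4, Kcnj10, Kcnj13, Kcnn1 and Hcn2. Among them are channels known from cortex. Hcn2, the widespread h-current subunit, was well above background on 1 and 2 of 10 arrays in sprouting and non-sprouting neurons at day 21 and on 3 and 5 at day 7. Kcnj10, the glial rectifier that clears potassium, was well above background on 3 and 3 of 10 arrays at day 21 and on 3 and 2 at day 7. Kcnn1 had 2 and 7 of 10 arrays at day 21, and 4 and 7 at day 7. At the other end, 14 members were well above background in both channels of every array, among them Kcna1, Kcna3, Kcnd2, Kcnh1, Kcnh2, Kcnj3, Kcnj6, Kcnk2, Kcnma3, Kcnq3, Kcns3 and Kcnv1. No tested member was saturated on any array.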

How the data were processed

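Sprouting and non-sprouting neurons of 10 rats were measured on 20 Agilent arrays, 2 per animal with Cy5 and Cy3 exchanged. RNA went through T7 amplification and indirect labelling, per the labels' protocols. Feature Extraction 9.1.3.1 gave each spot a mean and a local background intensity on a linear scale, per the file headers, and these were used here. Its deposited log10 ratio of red over green, which that program had corrected for background and dye (per the file headers), and the authors' deposited table of log2 ratios were alternatives. The normalization and centring of that table were not given in the sources used here. The columns correlated at 0.900 to 1.00 with their own array's loess values, with medians of 0.00274 to 0.0152, and 20 further columns were not used.

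Normexp with an offset of 50 was applied in limma 3.58.1 (R 4.3.3, with version 1.17.8 of data.table), followed by loess within arrays with control spots at weight 0. Outlier spots were set to missing, duplicate spots averaged, swapped ratios turned, and the 2 arrays of an animal averaged. Levels were single-channel log2 values after Aquantile between arrays. A probe was tested if, for 1 cell type and 1 day, 3 or more animals had it well above background on both arrays, which left 31071 features in the fits. Probes were named through the files and a RefSeq annotation (GRCr8). Tests were limma's lmFit and eBayes over all features with Benjamini-Hochberg adjustment at 0.05, and were tested on simulated data. Genes named were, per comparison, those past 0.05, filled to 4 per direction by unadjusted p (within a day only with 1 sign in 5 animals), plus a fixed set of 22 channels, of which 19 were tested members; of the 3 pathway lists, up to 2 genes of smallest p per comparison. Hcn4, Kcne1, Kcnj9, Kcnk6, Kcnk13, Kcnmb3 and Kcns3 were named after their values were seen. Some named genes are not reported here. The members and lists were chosen with earlier results of these data known.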

Additional observations from a re-analysis of the deposited data

Results flagged for a closer look

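In 9 of 100 groups of 5 animals tested among the named members, 1 animal lay far from the others, with a gap to its nearest neighbour of over 0.71 of the group's range. Chance alone gives about 1 in 20 such groups. For the log2 ratio at day 21, Kcna3 was 0.77 in replicate 3 and between -0.17 and 0.07 in the others, and Kcnc1 was -0.52 in replicate 4 and between -0.01 and 0.15 in the others. At day 7, Kcna3 was 0.85 in replicate 2 (0.21 to 0.37 in the others), Kcnd2 was 1.36 in replicate 2 (0.04 to 0.38), and Kcnn4 was 1.54 in replicate 1 (0.06 to 0.18). Kcnc2 was -0.25 in replicate 1 (-0.07 to -0.03 in the others), and Kcnj14 was 0.0533 in replicate 5 (-0.15 to -0.11). For levels at day 7, Kcng2 was 6.11 in non-sprouting neurons of replicate 2 (6.73 to 6.83 in the others), and Kcnk15 was 7.02 in sprouting neurons of replicate 2 (6.31 to 6.45). No named member had all 5 animals of day 21 on one side of 0 and all 5 of day 7 on the other.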

How the results depend on the processing

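Across the alternatives run (19 to 22 per comparison), no member passed an adjusted p of 0.05 for the ratio at either day, for its change or for the level in sprouting neurons. In non-sprouting neurons the count was 0 to 1 with single animals left out: without day 21 replicate 1, 1 member passed, Kcne4, at -0.61 and an adjusted p of 0.0413. Over the alternatives its value ran from -1.34 with Feature Extraction's processed signals to -0.32 with scan batch as a block, and its adjusted p was 1 with that block. Without that animal 198 and 527 features were called in sprouting and non-sprouting neurons. In a fit to all 20 arrays with the animal as a replicate block and a term for dye, 0 members were called in each ratio comparison, and 6, 10 and 5 were under an unadjusted p of 0.05 at day 21, at day 7 and for the change. Among the values of named genes, 2 reversed: the change of the Kcnip1 ratio was -0.0391 with scan batch as a block, and that of Kcnh7 was 0.00527 on forward arrays alone. The number of members under an unadjusted p of 0.05 moved with the setting, from 0 to 15 for the ratio at day 21, 2 to 12 at day 7, 0 to 5 for the change, 1 to 17 for the level in sprouting and 0 to 15 in non-sprouting neurons; with scan batch as a block it was 3 in each cell type. Without normalization between arrays the median of all features was -0.37 in sprouting and -0.36 in non-sprouting neurons. No paired analysis was possible because the days are separate animals that share only a number. The dim dye-swap arrays of day 21 limit members near background, and the causes of these shifts were not tested.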
